A study of Bos taurus with 60 samples.

Results

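The 6 heat-stressed (HT) cows of this study were compared between D3 and D-3, that is, 3 days after and 3 days before milking was stopped (dry-off). Samples were taken by 2 labels, the treatment HT and the time Day 3 or Day -3, and were paired by the subject id, so that each cow gave a mammary biopsy at both time points. This selected 12 of the 60 samples of the series, and no sample of a cooled cow was used. The cows were multiparous Holstein animals, numbered 8314, 8513, 8541, 8660, 8668 and 8713. HT cows had shade but no fans or soakers during the dry period. Because the treatment covered the dry period only, the D-3 biopsies came from milked cows before it began, and all D3 biopsies came from cows that were both dry and heat-stressed. Dry-off and the start of heat stress therefore cannot be told apart in this comparison, and cow is the unit of replication throughout. Per the paper, the biopsies alternated between parts of the udder from each time point to the next. Within-cow differences below therefore combine time with biopsy site, and the part of biopsy site in them was not tested.

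In the lactating gland, secretory epithelial cells make caseins, alpha-lactalbumin, lactose and milk fat, and myoepithelial cells around them contract to eject milk. When milking stops, milk accumulates, secretion is shut down, signalling through STAT3 and lysosomes takes part in the removal of epithelial cells in rodents, and matrix proteases, their inhibitors and immune cells take part in remodelling. In dairy cows this involution is slow and overlaps with pregnancy, and heat stress during the dry period is known to reduce the milk yield of the next lactation.

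Total counts per library ranged from 21842426 to 25011902 at D-3 and from 21547253 to 23580941 at D3. What differed was how the counts were shared out. The milk protein genes CSN1S1, CSN2 and LALBA held 43.1% of the D-3 counts in cow 8541 and 49.8% in cow 8713. In the other cows they held 8.03% (cow 8668), 1.47% (8660), 0.875% (8314) and 0.807% (8513) at D-3. At D3 the share was 7.45% in cow 8541 and 3.66% in cow 8713, and between 0.0286% and 0.849% in the other 4 cows. The share was lower at D3 in every cow, but the D3 share of cow 8541 was still above the D-3 shares of cows 8314, 8513 and 8660. The D-3 libraries of cows 8541 and 8713 stood apart from the rest, and their TMM normalization factors were 0.418 and 0.345, against 1.17 to 1.35 in the other D-3 libraries. CPM values below are counts relative to the library size scaled by this factor, so a gene that fills a library can reach very high CPM in these cows. Group values without both cows, and calls lost without them, are given below.

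**Figure D1:**
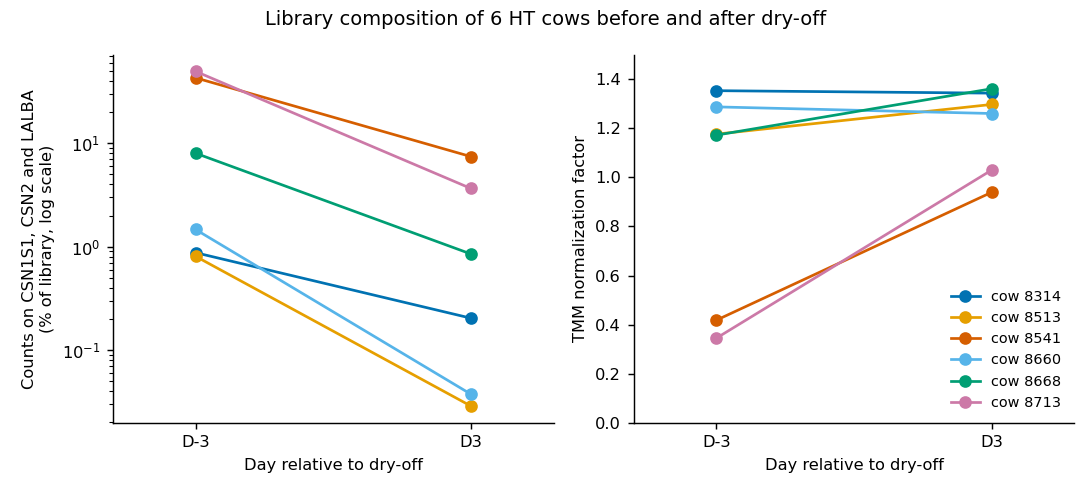
Left, share of all counts on CSN1S1, CSN2 and LALBA (% of the library, log scale), and right, TMM normalization factor, at D-3 and D3 in each of the 6 HT cows, 1 line per cow. Cows 8541 and 8713 start at 43.1% and 49.8% and have factors of 0.418 and 0.345 at D-3, while all other libraries have factors of at least 0.939.

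Of 13619 loci tested, 3 were differentially expressed genes (DEGs) at a false-discovery rate (FDR) of at most 0.05, which is 0.022% of those tested. All 3 were downregulated at D3. No locus was upregulated at this FDR in edgeR's quasi-likelihood F-test, in which 957 loci (7.03%) were higher at D3 with an unadjusted p under 0.05, and the smallest FDR of a locus higher at D3 was 0.0675. The count differed with the dispersion setting and with the test used. With tagwise dispersions, which the study's methods name, there were 865 DEGs (6.35%), 339 up (2.49%) and the rest down (3.86%), and with DESeq2 598 DEGs (4.57%), 218 up (1.67%) and 380 down (2.9%). A less stringent threshold, 0.005 for p before adjustment together with 0.5 for the size of the log2 fold change, was passed by 315 loci (2.31%). At D3, 103 of them were higher (0.756%) and 212 lower (1.56%). The largest FDR among these 315 loci was 0.201. They are described below as past the less stringent threshold and not as DEGs. All 315 were DEGs with tagwise dispersions, where they made up 36.4% of the 865, and 309 were DEGs in DESeq2, where they made up 51.7% of the 598. These tests used the same counts, so the overlap is no separate support.

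These counts rested on few animals. Without cow 8541 there were 0 DEGs in edgeR (1210 loci with an unadjusted p under 0.05), and without cow 8660 there were 0 as well (1751 loci). Leaving out cow 8668 left 1 DEG, leaving out cow 8314 left 2, leaving out cow 8713 left 4, and leaving out cow 8513 left 6. Past the less stringent threshold the count was 150 without cow 8541, 178 without cow 8660 and 174 without cow 8713. Without both cows 8541 and 8713, edgeR gave 0 DEGs, 1013 loci had an unadjusted p under 0.05, and 128 loci (0.922%) passed the less stringent threshold, 41 up and 87 down. The cows also differed in how much moved within them. In cow 8713, 1638 loci were at least 2-fold higher and 1389 at least 2-fold lower at D3, and in cow 8541 the counts were 1533 and 1072. Cow 8668 had the fewest, 133 and 220. Among the 212 loci lower past the less stringent threshold, 201 to 212 were lower in each cow. Among the 103 higher ones, 102 or 103 were higher in each cow except cow 8668, in which 84 were. These loci were chosen by their change in the same 6 cows, so much of this evenness follows from the choice. Over all tested loci, 5.85% were lower and 3.61% higher in 6 of 6 cows.

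**Figure D2:**
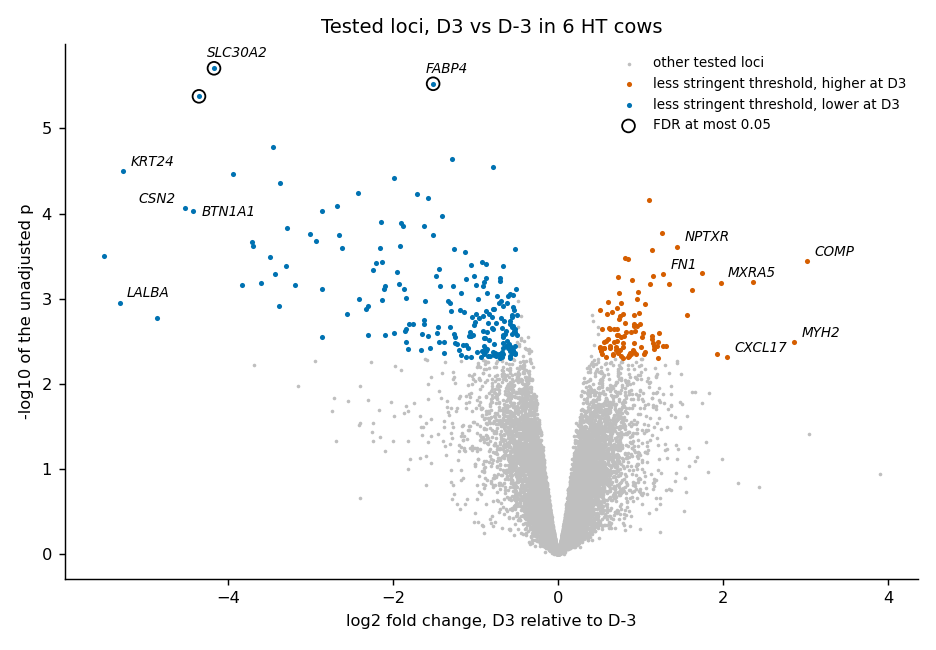
Each point is 1 of the 13619 tested loci, with the log2 fold change at D3 relative to D-3 on the x-axis and -log10 of the unadjusted p on the y-axis. Orange and blue points are the 103 higher and 212 lower loci past the less stringent threshold, and open circles are the 3 DEGs, all on the left side.

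Gene symbols could be paired with 2763 of the tested loci. Of these, 1591 were paired through a part of a published table that ranks genes by their change between the same days in all cows, these 6 included. Named genes are therefore weighted towards genes that changed, and 166 of them passed the less stringent threshold (6.01%), 42 up (1.52%) and 124 down (4.49%). Of these 166, 68 passed it in the same direction with any 1 cow left out, and 60 did so without cows 8541 and 8713. At an unadjusted p under 0.05 the shares were 12.2% up and 21.7% down among loci with a symbol, against 7.03% and 9.02% of all tested loci. Being lower at D3 in 6 of 6 cows held for 11.9% of loci with a symbol and 5.85% of all tested loci, and being higher in 6 of 6 cows for 5.43% and 3.61%. Among the 1591 loci of the ranked table the shares were higher, 17.4% up and 35.3% down at an unadjusted p under 0.05, 2.33% up and 7.61% down past the less stringent threshold, and 7.29% higher and 19.3% lower in 6 of 6 cows. That table supplied 186 of the 260 tested members of the gene lists, so counts of gene groups below should be read against its shares. Among the pathway lists it supplied every tested milk protein, fat globule, glucose and lactose, serine and glycine, autophagy and aminoacyl-tRNA synthetase gene. The same held for the pyruvate dehydrogenase and endoplasmic reticulum lists. Over all tested loci, 6892 log2 fold changes were above 0 and 6727 below 0. Such a count is not given for the ranked table alone, so signs shared within a list have no matching background. The median log2 fold change was 0.00 over all tested loci. With libraries scaled by size only it was 0.50, and the groups and named genes that changed sign under that scaling are given below.

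The first DEG was SLC30A2, which encodes a zinc transporter that loads zinc into milk. Its expression at D-3 was lowest in cow 8314 (0.570 CPM), had a median of 4.19 CPM and was highest in cow 8713 (185 CPM). At D3 the lowest was 0.0346 CPM, the median 0.404 CPM and the highest 6.00 CPM in cow 8541. The days overlapped between cows, since cows 8541 and 8713 at D3 were still above the 4 other cows at D-3, but every cow was lower at D3. The log2 fold change was -4.17 ± 0.36 (SE) with an FDR of 0.0191. The call was lost without cow 8314 (FDR = 0.0583), cow 8541 (0.0881) or cow 8660 (0.189). Without both cows 8541 and 8713 it no longer passed the low-count filter.

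The second DEG was FABP4, encoding a fatty acid-binding protein known from adipocytes and also found in endothelial cells. It ranged from 80.5 CPM through a median of 103 CPM to 453 CPM at D-3, and from 27.3 CPM through 41.7 CPM to 143 CPM at D3. As for SLC30A2, cows 8541 and 8713 were highest on both days. The D3 level was between 0.269 and 0.510 of the D-3 level in each of the 6 cows. The log2 fold change was -1.51 ± 0.14 (SE) with an FDR of 0.0191. It was no longer called without cow 8541 (FDR = 0.0881), cow 8660 (0.189) or cow 8668 (0.0551), without both cows 8541 and 8713 (0.176), or when libraries were scaled by size only (0.213) with a log2 fold change of -1.01. ADIPOQ, the other adipocyte marker with a symbol of the 8 listed, was also lower in all 6 cows, from a median of 14.0 CPM to 6.72 CPM. Its log2 fold change was -0.59 with an FDR of 0.341. This was -0.27 without cow 8314, and -0.07 (FDR = 0.904) with libraries scaled by size only. In tissue biopsies, fewer cells of a type and less RNA per cell cannot be told apart.

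The third DEG was the locus XLOC_020600, which has no symbol in the tables used. It ranged from 303.5 CPM in cow 8660 through a median of 5583 CPM to 163800 CPM in cow 8713 at D-3, and from 9.96 CPM through 540 CPM to 7457 CPM at D3. It alone took 5.65% of the D-3 counts of cow 8713 and 3.55% of those of cow 8541. The log2 fold change was -4.35 ± 0.41 (SE) with an FDR of 0.0191. The call was lost without cow 8314 (FDR = 0.0583), 8541 (0.0881), 8660 (0.258) or 8668 (0.0551), without both cows 8541 and 8713 (0.176), and with edgeR's newer quasi-likelihood method (0.0948). For each of the 3 DEGs all 6 within-cow differences were below 0. The exact sign-flip test over their 64 sign changes then always gives its smallest two-sided p, 0.03125. It adds nothing to the sign count, and 5.85% of all tested loci were lower in 6 of 6 cows.

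**Figure D3:**
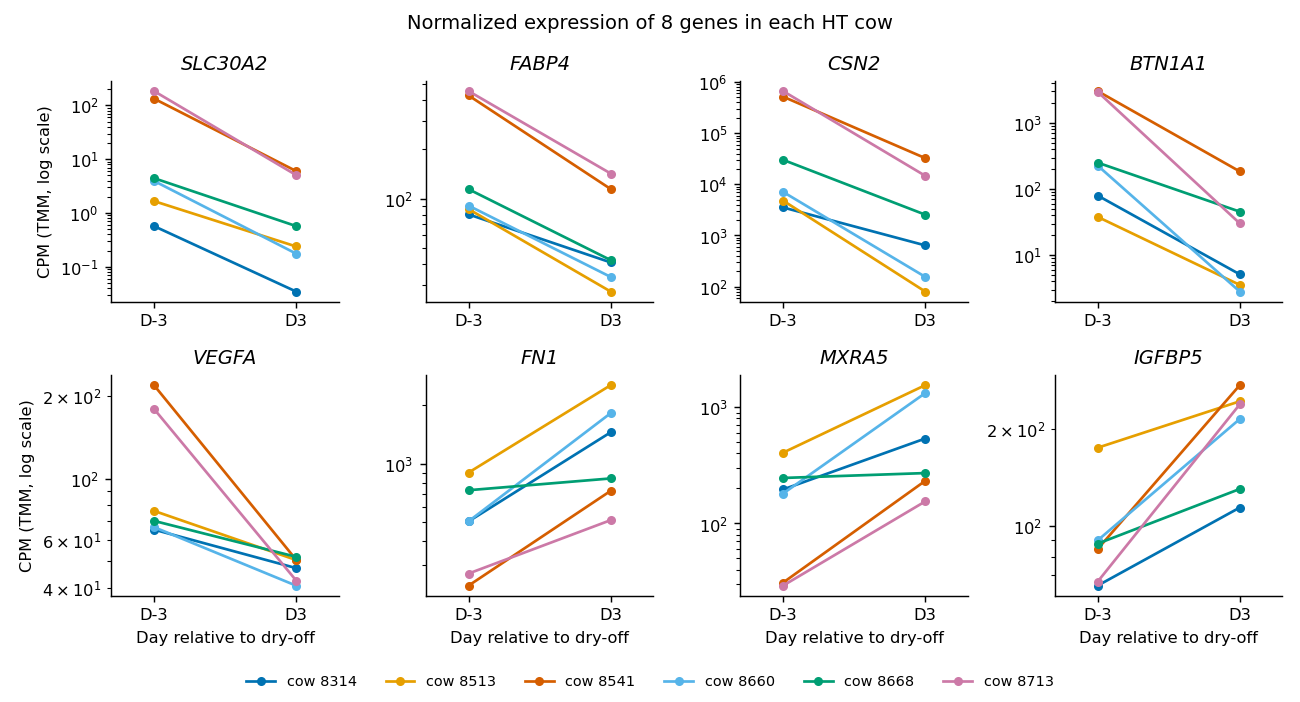
Normalized expression (CPM, log scale) of 8 genes at D-3 and D3, 1 line per cow. SLC30A2 and FABP4 (DEGs) and CSN2, BTN1A1 and VEGFA go down and FN1, MXRA5 and IGFBP5 go up in 6 of 6 cows. Cows 8541 and 8713 start highest for the genes that go down and lowest for FN1 and MXRA5.

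Next in order of p among the genes lower at D3 were KIF25, a kinesin family member, KRT24, a keratin, and HSTN, encoding histatherin, each with an FDR of 0.0575. KRT24 had a median of 2.27 CPM at D-3 (0.106 to 113 CPM) and 0.169 CPM at D3 (0.0680 to 1.45 CPM). It had a log2 fold change of -5.27 ± 0.65 (SE), with the highest D-3 levels in cows 8541 and 8713. Without cow 8541 or without both of these cows KRT24 no longer passed the low-count filter and was not tested. HSTN went from a median of 85.2 CPM to 11.5 CPM. KIF25 had a median of 10.6 CPM at D-3 and 4.17 CPM at D3, and the D3 level was 0.340 to 0.501 of the D-3 level in each cow. All 3 genes were lower in 6 of 6 cows. For KRT24 in cow 8513 this was 0.106 CPM against 0.0680 CPM, both near 0. At D3 KRT24 reached 1 CPM only in cow 8541 (1.45 CPM).

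Of 6 milk protein genes listed, 3 had a tested symbol, and all 3 were past the less stringent threshold, lower at D3. CSN2, encoding beta-casein, ranged from 3538 CPM through a median of 18630 CPM to 666800 CPM at D-3 and from 80.1 CPM through 1597 CPM to 32540 CPM at D3, with a log2 fold change of -4.52 ± 0.63 (SE) and an FDR of 0.0709. CSN1S1, encoding alpha-S1-casein, had a log2 fold change of -3.71 ± 0.59 (SE) and an FDR of 0.0959. Both were lower in every cow, but the size differed. The D3 level of CSN2 was 0.0166 of the D-3 level in cow 8513 and 0.181 in cow 8314. LALBA encodes alpha-lactalbumin, the regulatory subunit of lactose synthase. In cow 8513 it had 11.6 CPM at D-3 and 12.5 CPM at D3, while the other 5 cows had 309 to 90770 CPM at D-3 and 12.3 to 486 CPM at D3. LALBA had a log2 fold change of -5.31 ± 1.09 (SE) with an FDR of 0.142. DESeq2, run on the same cows and pairs, called LALBA (adjusted p = 7.9e-08) but neither CSN2 (0.121) nor CSN1S1 (0.220). Without cows 8541 and 8713 the median of the 3 was -4.12, against -4.52 with all cows, and LALBA was no longer past the less stringent threshold.

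The tested genes of the milk fat globule and of minor milk components were lower at D3, all of them paired through the ranked table. Of 18 listed, 9 were tested, all 9 had log2 fold changes below 0 with an unadjusted p under 0.05, 7 passed the less stringent threshold and 8 were lower in 6 of 6 cows. The median log2 fold change was -2.24, and the median within-cow difference ran from -0.97 in cow 8314 to -3.94 in cow 8713. BTN1A1 encodes butyrophilin, a membrane protein of the secreted globule, and had a median of 239 CPM at D-3 (37.95 to 3039 CPM) and 17.6 CPM at D3 (2.81 to 185 CPM). For BTN1A1 the log2 fold change was -4.43 ± 0.63 (SE) and the FDR 0.0709. XDH, which encodes xanthine oxidoreductase, the partner of butyrophilin in globule secretion, went from 2089 CPM (734 to 14070 CPM) to 773 CPM (618.5 to 2979 CPM), with a log2 fold change of -1.63. In cow 8314 XDH was 734 CPM at D-3 and 685 CPM at D3. MUC15, a mucin of the globule membrane, had a log2 fold change of -3.37 and an FDR of 0.0596, FABP3, a fatty acid-binding protein of secretory cells, -3.69, CD36, a fatty acid translocase, -2.15, and PLIN2, a lipid droplet coat protein, -1.93. LPL, lipoprotein lipase, was lower in 5 cows and higher in cow 8513 (47.7 CPM at D-3, 65.5 CPM at D3), with an FDR of 0.304. Without cows 8541 and 8713 the median log2 fold change was -1.51, all 9 were below 0 and 5 passed the less stringent threshold, XDH and PLIN2 no longer. XDH also lost this call without cow 8513, 8541 or 8660 alone.

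For fatty acid and triglyceride synthesis, 15 of 27 listed genes were tested. Of these, 13 were lower with an unadjusted p under 0.05, 5 passed the less stringent threshold, and 10 were lower in 6 of 6 cows. The median log2 fold change was -1.31. ACACA, acetyl-CoA carboxylase, the first committed step of fatty acid synthesis, went from a median of 164 CPM (101 to 1450 CPM) to 83.9 CPM (71.98 to 266 CPM), log2 fold change -1.31 ± 0.30 (SE), FDR 0.174. ACSS2, which activates acetate, had a log2 fold change of -1.99 and SCD, the desaturase that makes oleate, -2.86 ± 0.68 (SE). FASN, fatty acid synthase, had 14710 CPM at D-3 and 298 CPM at D3 in cow 8713, while cow 8513 had 694 CPM and 735 CPM. The log2 fold change of FASN was -1.99 with an FDR of 0.271, and without cow 8513 the FDR was 0.225. SREBF1, the transcription factor of lipid synthesis, was 90.7 CPM and 89.3 CPM in cow 8314, and lower in the other 5, with a log2 fold change of -0.98 and an FDR of 0.194. PPARG had a log2 fold change of -0.67 and was not past the less stringent threshold. The median within-cow difference of the group was -2.20 in cow 8541 and -2.78 in cow 8713, and between -0.85 and -0.37 in the other 4 cows. Without these 2 cows the median log2 fold change was -0.65, and 3 of the group passed the less stringent threshold, but none did without cow 8541 alone or without cow 8660 alone, which includes ACACA, ACSS2, SCD and SREBF1.

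Genes of glucose uptake and lactose synthesis were described by 9 of 19 listed. Of these, 7 were lower with an unadjusted p under 0.05 and 4 passed the less stringent threshold, namely LALBA, B4GALT1, UGP2 and ALDOC, and only ALDOC did so without cows 8541 and 8713. B4GALT1 encodes the galactosyltransferase that joins alpha-lactalbumin to form lactose synthase, and went from a median of 1562 CPM (877 to 5604 CPM) to 890.4 CPM (594.5 to 2094 CPM), log2 fold change -1.07 ± 0.25 (SE). It was not lower in cow 8314 (877 CPM at D-3 and 898 CPM at D3), and its call was kept in 1 of the 6 fits that left out a cow. UGP2, which makes UDP-glucose, was lower in 6 of 6 cows with a log2 fold change of -0.97 and an FDR of 0.142. ALDOC, an aldolase of glycolysis, went from 98.2 CPM to 25.3 CPM in the median, log2 fold change -1.95. SLC2A1, the GLUT1 glucose transporter, was 204 CPM at D-3 and 45.7 CPM at D3 in cow 8541 but 35.2 CPM and 34.5 CPM in cow 8513. For SLC2A1 the log2 fold change was -1.01 with an FDR of 0.228, and the median of the group was -0.46 without cows 8541 and 8713.

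**Figure D4:**
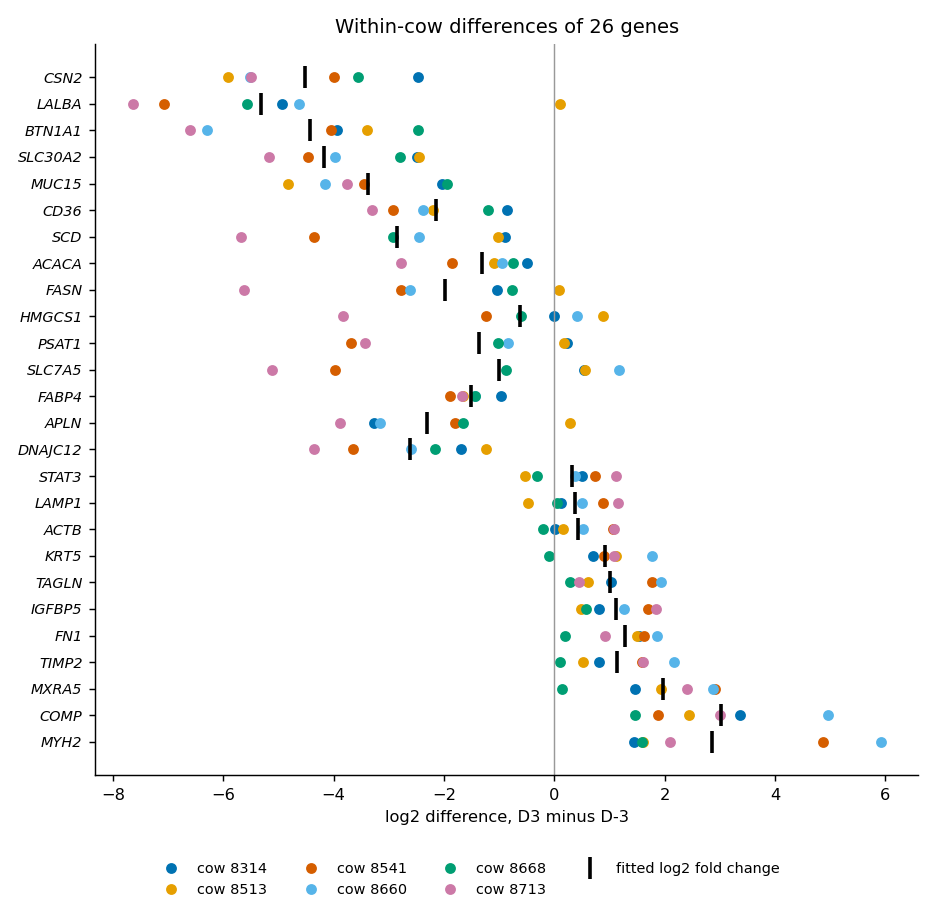
Within-cow log2 differences (D3 minus D-3) of 26 genes, 1 point per cow, with the fitted log2 fold change as a black bar. Points of CSN2, BTN1A1, SLC30A2 and FABP4 all lie below 0 and those of IGFBP5, FN1, MXRA5 and COMP all above 0, while HMGCS1, PSAT1 and SLC7A5 have their lowest points in cows 8541 and 8713 and a point above 0 in cow 8513.

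In several groups of biosynthetic genes, cows 8541 and 8713 were far below 0 and other cows near or above 0. All 15 tested genes of cholesterol and isoprenoid synthesis (22 listed) had log2 fold changes below 0, with a median of -0.64. With libraries scaled by size only, 4 were above 0. Only 1 was lower in 6 of 6 cows, and none passed the less stringent threshold in edgeR (1 with tagwise dispersions). Of the 15, 3 were lower with an unadjusted p under 0.05, against 35.3% of the loci of the ranked table. The median within-cow difference was -2.52 in cow 8713 and -1.24 in cow 8541, and between -0.48 and 0.42 in the other cows. HMGCS1, an early enzyme of this pathway, was 746 CPM at D-3 and 52.4 CPM at D3 in cow 8713 but 83.0 CPM and 154 CPM in cow 8513. Without both cows the median log2 fold change of the group was -0.06, with 6 genes above 0 and 9 below. HSD17B7 was the gene lower in all cows, from a median of 67.5 CPM to 50.1 CPM, with an FDR of 0.225. For the synthesis of serine, glycine and asparagine all 7 tested genes (11 listed) had log2 fold changes below 0, with a median of -0.82. Of the 7, 2 were lower with an unadjusted p under 0.05, against the same 35.3%. The median within-cow difference was -2.32 in cow 8541 and -2.15 in cow 8713 but 0.44 in cow 8314 and 0.17 in cow 8513, and the median log2 fold change without cows 8541 and 8713 was -0.18. PSAT1, a serine synthesis enzyme, had 328 CPM at D-3 and 30.5 CPM at D3 in cow 8713 but 28.9 CPM and 33.7 CPM in cow 8314.

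Amino acid transport was split in the same manner. Of 15 listed genes, 9 were tested and SLC38A3, a glutamine transporter, was the one past the less stringent threshold, from a median of 15.5 CPM (1.84 to 238 CPM) to 3.00 CPM (0.680 to 18.6 CPM), with a log2 fold change of -2.56 ± 0.55 (SE) and an FDR of 0.157. The call of SLC38A3 was lost without cow 8541, without cow 8713 and without both. The median of the group was -0.74, but -0.13 without these cows and -0.25 with libraries scaled by size only, where 4 of the 9 were above 0. SLC7A5, the light chain of a leucine transporter, was 788 CPM at D-3 and 50.1 CPM at D3 in cow 8541 but 42.6 CPM and 96.5 CPM in cow 8660. SLC3A2, its heavy chain, had a log2 fold change of 0.35 with an FDR of 0.408. The 8 tested aminoacyl-tRNA synthetases of 20 listed, which charge tRNAs for protein synthesis, were all below 0 with a median log2 fold change of -0.53, and EPRS had an FDR of 0.276. Their median was -0.12 without cows 8541 and 8713, and -0.03 with libraries scaled by size only, where 3 were above 0. Of the 8, 3 were lower with an unadjusted p under 0.05, against 35.3% of the loci of the ranked table that supplied all 8. None passed the less stringent threshold with trended dispersions, but 2 did with tagwise dispersions.

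The breakdown of branched-chain amino acids was more even across cows. All 12 tested genes of 20 listed had log2 fold changes below 0, 8 with an unadjusted p under 0.05, and 7 were lower in 6 of 6 cows, with a median of -0.53. PCCB, a subunit of propionyl-CoA carboxylase, went from a median of 39.5 CPM (24.6 to 77.2 CPM) to 22.2 CPM (19.3 to 29.3 CPM) with a log2 fold change of -0.85 ± 0.23 (SE), and HIBADH, of valine breakdown, had a log2 fold change of -0.88 ± 0.28 (SE). None of the 12 passed the less stringent threshold with trended dispersions, while 2 were DEGs in DESeq2 and 5 with tagwise dispersions. The within-cow median was below 0 in all 6 cows, from -1.52 in cow 8713 to -0.12 in cow 8668. Without cows 8541 and 8713, 11 of the 12 were below 0 with a median of -0.25, but with libraries scaled by size only 5 were above 0 and the median was -0.03. Of 5 tested genes of pyruvate dehydrogenase and the citrate cycle (23 listed), 4 were lower with an unadjusted p under 0.05 and IDH3A was higher, with a log2 fold change of 0.52 and an FDR of 0.225. All 5 tested genes of protein translocation and folding in the endoplasmic reticulum (31 listed) were below 0, with a median of -0.46. With libraries scaled by size only both groups had medians above 0 (0.03 and 0.05), and PDHA1, SSR1 and SEC62 changed sign. The medians were -0.21 and -0.12 without cows 8541 and 8713, against -0.48 and -0.46 with all cows.

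Of 9 tested angiogenic factors and receptors (20 listed), 8 had log2 fold changes below 0, 3 with an unadjusted p under 0.05. At this p, 35.3% of the loci of the ranked table, which supplied 5 of the 9, were lower, and 21.7% of all loci with a symbol. The median log2 fold change was -0.50, which was 0.01 with libraries scaled by size only, where 5 were above 0, and -0.53 without cows 8541 and 8713, where 3 were above 0. VEGFA, the main vascular growth factor, was past the less stringent threshold, and its days did not overlap. It ranged from 65.2 CPM through a median of 73.2 CPM to 219 CPM at D-3 and from 40.7 CPM through 48.9 CPM to 51.9 CPM at D3. VEGFA had a log2 fold change of -1.05 ± 0.28 (SE) with an FDR of 0.197, and over all tested loci 11 (0.0808%) were lower without overlap. APLN, which encodes the peptide apelin, went from a median of 18.3 CPM (5.31 to 30.4 CPM) to 3.17 CPM (1.40 to 6.46 CPM), with a log2 fold change of -2.31 and an SE of 0.54. Cow 8513 was the exception, at 5.31 CPM and 6.46 CPM. ANGPT2 was lower in 6 of 6 cows with a log2 fold change of -0.77 and an FDR of 0.244, and cow 8314 had the largest difference, from 67.6 CPM to 16.5 CPM. KDR, the VEGF receptor and an endothelial marker, was higher in 2 of 6 cows, and its log2 fold change of -0.60 was above 0 (0.17) without cows 8541 and 8713. With EMCN, the other endothelial marker with a symbol of 9 listed, the median was -0.49, but 0.0031 with libraries scaled by size only and 0.023 without these cows. VEGFA and APLN, the 2 angiogenic genes past the less stringent threshold, both lost the call without cow 8314, 8541, 8660 or 8713, APLN also without cow 8668 and VEGFA without cow 8513. Without both cows 8541 and 8713 VEGFA passed it and APLN did not.

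Extracellular matrix genes had the largest positive median of the pathway lists, 1.13, and 10 of the 11 tested (44 listed) had log2 fold changes above 0. Of these 11, 6 were higher with an unadjusted p under 0.05 and 5 passed the less stringent threshold, FN1, COMP, MXRA5, TIMP1 and TIMP2. In DESeq2 and with tagwise dispersions 6 of the group were DEGs in each. FN1, encoding fibronectin, ranged from 235.5 CPM through a median of 505 CPM to 901 CPM at D-3 and from 512.5 CPM through 1148 CPM to 2544 CPM at D3. It was higher at D3 in 6 of 6 cows, by 1.15-fold in cow 8668 and by 3.61-fold in cow 8660. This gave FN1 a log2 fold change of 1.28 ± 0.23 (SE) with an FDR of 0.121. MXRA5, a matrix-remodelling associated protein, was 29.2 to 246 CPM at D-3 in 5 cows and 406 CPM in cow 8513, and 155 to 1547 CPM at D3, with a log2 fold change of 1.97 ± 0.37 (SE). COMP, cartilage oligomeric matrix protein, was at 0 to 4.53 CPM at D-3 and 0.567 to 26.9 CPM at D3, with a log2 fold change of 3.02 ± 0.52 (SE) that depends on the prior count at such levels.

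The inhibitors of matrix proteases TIMP1 and TIMP2 had log2 fold changes of 1.23 ± 0.29 (SE) and 1.13 ± 0.27 (SE), with FDRs of 0.177 for both. TIMP1 was not higher in cow 8668 (23.5 CPM at D-3 and 22.4 CPM at D3). Cow 8668 was the low cow for the whole group, with a median within-cow difference of -0.07, against 0.75 to 1.85 in the other 5 cows. DCN, encoding decorin and also a fibroblast marker, was 0.40 on the log2 scale with an FDR of 0.316, and DPT, dermatopontin, another fibroblast marker, had a log2 fold change of 1.45 ± 0.39 (SE), was higher in 6 of 6 cows and had an FDR of 0.206. Of the 8 fibroblast markers listed these 2 had a symbol, so that the part of fibroblast number in the matrix genes was not tested. The median of the matrix genes was 0.91 without cows 8541 and 8713, with 10 of 11 above 0 and 2, FN1 and COMP, past the less stringent threshold. These 2 and MXRA5 passed it with any 1 cow left out, while TIMP1 and TIMP2 lost the call in 4 of these 6 fits each. Outside the lists, PRG4, encoding lubricin, and NPTXR, the neuronal pentraxin receptor, were among the 5 genes with the smallest p on the higher side. NPTXR went from a median of 7.15 CPM (2.36 to 17.3 CPM) to 15.5 CPM (8.78 to 41.4 CPM), which is a log2 fold change of 1.45 ± 0.24 (SE) with an FDR of 0.0959. PRG4 went from a median of 2.63 CPM to 12.8 CPM and had a log2 fold change of 1.74 ± 0.31 (SE) with an FDR of 0.121, and was not past the less stringent threshold without cows 8541 and 8713.

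Myoepithelial markers had log2 fold changes above 0 in all 5 genes tested of 8 listed, 4 with an unadjusted p under 0.05. KRT5, a basal keratin, went from a median of 230 CPM (129 to 455 CPM) to 505 CPM (224 to 990 CPM), with a log2 fold change of 0.92 ± 0.22 (SE) and an FDR of 0.189, and TAGLN, transgelin, had a log2 fold change of 1.01 ± 0.25 (SE) and an FDR of 0.191. Both passed the less stringent threshold, and neither did so without cows 8541 and 8713, or without cow 8314, 8541 or 8660 alone. KRT5 also lost the call without cow 8513 or cow 8713. It kept the call in 1 of the 6 fits that left out a cow, and TAGLN in 3. KRT5 was higher in 5 of 6 cows and TAGLN in 6 of 6. The median of the 5 markers was 0.92, and 0.89 without these 2 cows. ACTA2, smooth muscle actin, had a log2 fold change of 0.75 and an FDR of 0.275. Cow 8668 was again apart, with 239 CPM and 224 CPM of KRT5 and 247 CPM and 229 CPM of ACTA2 at D-3 and D3. KRT19, the luminal epithelial marker with a symbol of 9 listed, had a log2 fold change of 0.28 and an FDR of 0.501, and was 446 to 1021 CPM at D-3 against 396 to 1807 CPM at D3. Actin cytoskeleton and adhesion genes had small log2 fold changes of 1 sign. All 26 tested of 44 listed had log2 fold changes above 0, with a median of 0.44, 11 with an unadjusted p under 0.05, and none passed the less stringent threshold with trended dispersions (5 with tagwise dispersions). The median was 0.28 without cows 8541 and 8713, and 22 of the 26 were then above 0. The ranked table supplied 18 of the 26. TPM4, a tropomyosin, had the smallest p of the group, with a log2 fold change of 0.87 ± 0.25 (SE) and an FDR of 0.225. Of 11 tested genes of tight junctions and epithelial keratins (25 listed), 10 were above 0, with a median of 0.28 that was 0.13 without cows 8541 and 8713. KRT17 was past the less stringent threshold with a log2 fold change of 0.73, on a locus that joins 2 ENSEMBL genes whose reads cannot be divided, and lost this call without cow 8314, 8541, 8660 or 8713 and without both cows 8541 and 8713.

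**Figure D5:**
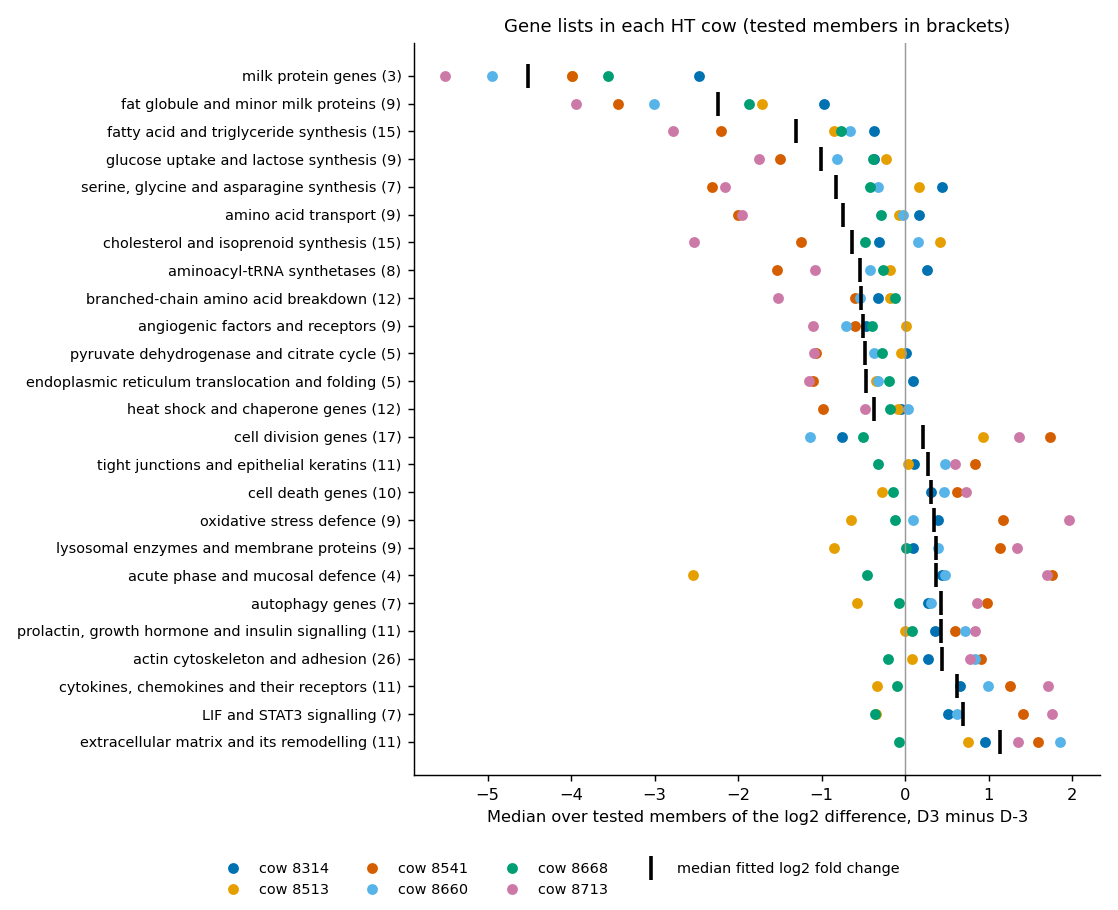
Median log2 difference (D3 minus D-3) over the tested members of each gene list in each of the 6 HT cows, with the median fitted log2 fold change as a black bar and the number of tested members in brackets. Milk protein and fat globule genes lie below 0 in all cows, cholesterol and serine synthesis genes far below 0 in cows 8541 and 8713, and the matrix genes above 0 in all cows except cow 8668.

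Among genes of prolactin, growth hormone and insulin signalling, 11 of 25 listed were tested, 6 were higher and 2 lower with an unadjusted p under 0.05. The median log2 fold change was 0.43, and 0.27 without cows 8541 and 8713. IGFBP5, a binding protein that sequesters insulin-like growth factors, ranged from 64.9 CPM through a median of 86.1 CPM to 175 CPM at D-3 and from 114 CPM through 227.5 CPM to 275 CPM at D3. It was higher in 6 of 6 cows, with cow 8513 well above the others at D-3. Its log2 fold change was 1.11 ± 0.21 (SE) with an FDR of 0.121. CISH, a cytokine-induced inhibitor of STAT5 signalling, was lower in 6 of 6 cows, from a median of 52.2 CPM to 33.0 CPM, with a log2 fold change of -0.87 ± 0.22 (SE) and an FDR of 0.193. It was past the less stringent threshold, as was IGFBP5. CISH lost this call without cow 8314, 8541, 8660 or 8668, and without both cows 8541 and 8713. ERBB3, a receptor of the epidermal growth factor family, was 40.7 CPM at D-3 and 731 CPM at D3 in cow 8541 and 90.3 CPM and 977 CPM in cow 8713, but 258 CPM and 265 CPM in cow 8668, and its FDR was 0.320.

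In groups tied to the first phase of involution, cows moved in opposite directions. For LIF and STAT3 signalling (7 tested of 15 listed), cell death (10 of 27), autophagy (7 of 26), lysosomal proteins (9 of 36), acute phase and mucosal defence (4 of 28), cytokines and chemokines (11 of 36) and oxidative stress defence (9 of 34), the median within-cow difference was highest in cows 8541 and 8713 and was below 0 in cow 8513. Without cows 8541 and 8713 the median log2 fold change of these groups was 0.13, 0.04, 0.07, -0.04, -0.30, 0.23 and -0.06 in the same order, against 0.70, 0.31, 0.43, 0.37, 0.37, 0.63 and 0.35 with all 6 cows. LIF, the cytokine that activates STAT3 in rodent involution, was 1.06 CPM at D-3 and 16.3 CPM at D3 in cow 8713 and 0.956 CPM and 11.7 CPM in cow 8541, but 12.7 CPM and 3.88 CPM in cow 8513. STAT3 was 195 CPM and 423 CPM in cow 8713 and 361 CPM and 249 CPM in cow 8513, with a log2 fold change of 0.32 and an FDR of 0.477. LAMP1, a lysosomal membrane protein, had a log2 fold change of 0.37 and an FDR of 0.40. All 9 lysosomal genes had log2 fold changes above 0, none with an unadjusted p under 0.05, and DESeq2 and tagwise dispersions called none of them. Of the autophagy genes, WIPI1 was past the less stringent threshold on the lower side, with a log2 fold change of -0.99 ± 0.21 (SE) and 6 of 6 cows, and DRAM1 was higher in 6 of 6 cows with a log2 fold change of 0.43 and an FDR of 0.202.

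The inflammatory genes showed the same division of the cows. C3, complement component 3, was 7659 CPM at D-3 and 1042 CPM at D3 in cow 8513 but 3319 CPM and 16510 CPM in cow 8541 and 2575 CPM and 10100 CPM in cow 8713. LBP, the lipopolysaccharide-binding protein, was 465 CPM and 102 CPM in cow 8513 and 41.7 CPM and 1108 CPM in cow 8713. LBP had a log2 fold change of 1.23 with an FDR of 0.530, which was -0.17 without cows 8541 and 8713. CXCL17, a mucosal chemokine, was the cytokine past the less stringent threshold, from a median of 1.96 CPM (0.382 to 10.8 CPM) to 5.85 CPM (2.57 to 34.8 CPM), with a log2 fold change of 2.05 ± 0.54 (SE) and an FDR of 0.198. It was lower in cow 8314 (10.8 CPM and 8.02 CPM), and kept its call in 1 of the 6 fits that left out a cow. None of the cytokine group passed the less stringent threshold without cows 8541 and 8713. CXCL12, a stromal chemokine, was lower in 6 of 6 cows with a log2 fold change of -0.41 and an FDR of 0.281, and was 0.09 when libraries were scaled by size only. For leukocytes only AIF1, of 12 macrophage and monocyte markers, and PGLYRP1, of 9 neutrophil markers, had a tested symbol, with log2 fold changes of 0.36 (FDR = 0.334) and -0.36 (FDR = 0.597, and 0.14 on the log2 scale with libraries scaled by size only), and no T cell, B cell or pan-leukocyte marker did, so the part of leukocyte numbers was not tested.

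Heat shock and chaperone genes had no common direction in these heat-stressed cows. Of 36 listed, 12 were tested, 5 above 0 and 7 below 0, with a median log2 fold change of -0.37, which was -0.02 without cows 8541 and 8713 and 0.14 with libraries scaled by size only. The median within-cow difference was -0.98 in cow 8541 and -0.48 in cow 8713 and between -0.18 and 0.03 in the other cows. DNAJC12, a co-chaperone of aromatic amino acid hydroxylases, was past the less stringent threshold on the lower side, from a median of 76.1 CPM (21.5 to 1753 CPM) to 20.7 CPM (3.997 to 110 CPM), with a log2 fold change of -2.62 ± 0.43 (SE), an FDR of 0.0959 and 6 of 6 cows. HSPB6, a small heat shock protein of muscle, was past it on the higher side, from 23.6 CPM (11.7 to 47.4 CPM) to 44.7 CPM (27.0 to 146 CPM), with a log2 fold change of 1.02 ± 0.24 (SE), an FDR of 0.177 and 6 of 6 cows. HSPB6 lost this call without cow 8314, 8513, 8541 or 8660, and DNAJC12 kept it with any 1 cow left out. HSPD1, the mitochondrial chaperonin, was lower in 6 of 6 cows with a log2 fold change of -0.46 and an FDR of 0.281. CLU, the extracellular chaperone clusterin, was 122 CPM at D-3 and 3009 CPM at D3 in cow 8713 and 4417 CPM and 2018 CPM in cow 8513, and its FDR was 0.377. Of the oxidative stress genes, PRDX3 and SOD1 were lower in 6 of 6 cows, with log2 fold changes of -0.41 and -0.54 and FDRs of 0.206 and 0.256, and PRDX3 was 0.10 when libraries were scaled by size only. SOD2 was 16.0 CPM at D-3 and 323 CPM at D3 in cow 8713 and 371 CPM and 95.6 CPM in cow 8513.

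Cell division genes had no common direction. Of 17 tested (28 listed), 12 were above 0 and 5 below 0, 1 had an unadjusted p under 0.05, and none passed the less stringent threshold in edgeR or was a DEG in DESeq2. The median within-cow difference was 1.74 in cow 8541, 1.36 in cow 8713 and 0.93 in cow 8513, and -1.14 in cow 8660, -0.76 in cow 8314 and -0.51 in cow 8668. When cows 8541 and 8713 were left out, 16 of the 17 were below 0, with a median of -0.39. MKI67, a marker of cycling cells, was 2.29 CPM at D-3 and 29.2 CPM at D3 in cow 8541 and 95.8 CPM and 35.1 CPM in cow 8660. At D3 it lay between 24.0 and 53.2 CPM in all 6 cows, against 2.29 to 95.8 CPM at D-3. The log2 fold change of MKI67 was 0.40 with an FDR of 0.739 and was below 0 without the block for cow (-0.20), without cow 8541 (-0.08) and without cows 8541 and 8713 (-0.44).

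The skeletal muscle marker MYH2, a fast myosin heavy chain, was past the less stringent threshold and had the largest log2 fold change in size of all tested cell type markers. It ranged from 0.0356 CPM through a median of 0.330 CPM to 2.25 CPM at D-3 and from 0.704 CPM through 5.53 CPM to 9.90 CPM at D3, and was higher in 6 of 6 cows. Its log2 fold change was 2.86 ± 0.70 (SE) with an FDR of 0.188. It passed the less stringent threshold without cow 8660 but not without cow 8314, 8541, 8668 or 8713, nor without cows 8541 and 8713. Without cow 8513 it no longer passed the low-count filter and was not tested. No other of the 10 skeletal muscle markers had a tested symbol, so the part of muscle tissue in these biopsies was not tested, also for HSPB6, TAGLN and ACTA2, which muscle cells express too.

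The following genes past the less stringent threshold were chosen after their values were seen, because they belong to secretion, transport or the basement membrane. ATP2C2, a calcium pump of the secretory pathway, was lower in 6 of 6 cows, from a median of 210 CPM to 65.1 CPM, with a log2 fold change of -1.71 ± 0.23 (SE) and an FDR of 0.0661. SLC16A1, a monocarboxylate transporter, had a log2 fold change of -1.87, AQP3, a water and glycerol channel, -2.10, TFF3, a trefoil peptide of mucous secretions, -2.31, G0S2, an inhibitor of lipolysis, -2.41, DIO2, which activates thyroid hormone, -1.48, and BHLHA15, a transcription factor of secretory cells, -1.81, all in 6 of 6 cows. SLC16A1, AQP3, TFF3 and BHLHA15 lost the call without cows 8541 and 8713, and BHLHA15 also without cow 8513, 8541 or 8660 alone. All 7 had their highest D-3 values in cows 8541 and 8713. On the higher side, the laminin subunit LAMA3 had a log2 fold change of 0.61 ± 0.12 (SE), the ligand WNT2 1.35, IGFALS, which stabilises circulating insulin-like growth factor complexes, 1.62, and MFAP5, a microfibril protein, 1.56 in 5 of 6 cows. LAMA3 and MFAP5 lost the call without cows 8541 and 8713, and MFAP5 also without cow 8513, 8541 or 8660 alone. Besides VEGFA, the days did not overlap for SPRY4, an inhibitor of growth factor signalling (15.1 to 36.5 CPM at D-3 and 3.84 to 13.4 CPM at D3), for AACS, acetoacetyl-CoA synthetase (78.7 to 229 CPM and 47.3 to 69.5 CPM), for FAM101B (132 to 246 CPM and 82.3 to 128 CPM), and, on the higher side, for TARSL2, related to threonyl-tRNA synthetase (6.19 to 10.96 CPM and 11.2 to 18.4 CPM). SPRY4, AACS, FAM101B and TARSL2 each lost the less stringent call without cow 8314, without cow 8660 and without both cows 8541 and 8713. The call was also lost without cow 8541 for SPRY4, AACS and FAM101B. Without cow 8713 it was lost for FAM101B and TARSL2, and without cow 8513 for TARSL2. Over all tested loci 6 (0.0441%) were higher without overlap.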

How the data were processed

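Mammary RNA was prepared with NEBNext Ultra kits and sequenced on a NextSeq 500. Per the submitters' processing notes and the methods, the authors trimmed reads with Trim Galore 0.4.1, mapped them with TopHat2 2.0.13, assembled transcripts with Cufflinks 2.2.1 and counted uniquely mapped reads with HTSeq. The methods name the bosTau7 build and the notes UMD3.1, so no coordinates are given. The authors deposited raw counts per locus, without normalization. Each file has 26073 entries for 25223 loci. The 742 loci that join several genes are repeated with the same count and entered once.

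The 12 HT samples of D-3 and D3 were analysed, and later HT samples only in alternatives. Loci reaching 1 CPM in 6 or more of these 12 samples were tested by edgeR 4.0.16 (R 4.3.3), TMM factors, trended dispersions and a quasi-likelihood F-test, with a block for cow and a term for day and Benjamini-Hochberg FDR. The pairing comes from the subject id. Deviations from the day mean correlated at 0.542 on average in the same cow (0.269 to 0.663) and at -0.0994 between cows. Log2 CPM used a prior count of 2. Alternatives were RLE factors, library size only, TMM without CSN1S1, CSN2 and LALBA, DESeq2 1.42.0, other low-count filters and no block. Others were 18 or 30 HT samples, tagwise dispersions, the newer quasi-likelihood method and robust shrinkage. Each cow was also left out and, chosen after seeing the data, cows 8541 and 8713 together. Python 3.11.15, numpy 2.4.6, pandas 2.3.3, scipy 1.17.1 and matplotlib 3.10.9 made the tables, exact tests and figures.

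The genes and lists were chosen with earlier results of these data known. Named genes are, in each direction, DEGs with a symbol filled up to 5 by the smallest p, for each list the 2 tested members with the highest mean CPM and the 2 with the smallest p, for each marker list the 2 highest, and at most 2 loci without a symbol each way. Some genes that these choices would name are not reported here. Other list members named were chosen after their values were seen. Symbols came from the part of the supplementary tables held here, which pair 3033 loci, and 134 loci with several symbols were not used. Depth limits the precision of genes of a few CPM.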

Additional observations from a re-analysis of the deposited data

Results flagged for a closer look

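In 5 of 218 gene and day groups of 6 cows, the highest cow lay apart from the others by more than Dixon's limit of 0.625 for 6 samples, and chance flags about 1 in 20 groups. All 5 were values of cow 8513, 4 of them at D-3. On the log2 CPM scale these were IGFBP5 at D-3 (7.453, next highest 6.49), STAT3 at D-3 (8.498, next highest 7.92), FOSL2 at D-3 (8.345, next highest 7.26), FLNA at D-3 (10.56, next highest 9.74) and PRG4 at D3 (5.875, next highest 4.03). The groups share the same 6 cows, so they are not independent and this rate is only a rough guide. Dixon's limit looks for a single cow, so cows that stand apart together can be missed. Cows 8541 and 8713, apart from the rest in milk protein share at D-3, had 0 flags each. The reason for the shared cow was not tested.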

How the results depend on the processing

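The analysis as reported gave 3 DEGs, 0 up and 3 down, and 315 loci past the less stringent threshold. DEG counts stayed within 1.5 times of this with RLE factors, the stricter filter, the newer quasi-likelihood method and robust shrinkage. So they did with TMM without CSN1S1, CSN2 and LALBA, while other loci with large shares of the counts stayed in. They were 48 (14 up, 34 down) with library size only, 598 (218 up, 380 down) in DESeq2, 39 (1 up, 38 down) without a low-count filter, and 865 (339 up, 526 down) with tagwise dispersions. They were 0 without the replicate block for cow (922 loci at an unadjusted p under 0.05), 0 with 18 HT samples (1744 loci), 0 with all 30 HT samples (2424 loci) and 0 without cows 8541 and 8713 (1013 loci). The less stringent threshold gave 315, 103 up and 212 down. Leaving out 1 cow gave 0 to 6 DEGs, 0 up and 0 to 6 down. Scaling by library size moved the split past the less stringent threshold to 212 up and 74 down, and the median log2 fold change of all loci to 0.50. The causes were not tested.

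Log2 fold changes with the opposite sign under an alternative were as follows. With library size only they were 0.33 (SREBF2), 0.073 (SLC38A2), 0.012 (SLC38A10), 0.030 (PDHA1), 0.047 (SSR1), 0.15 (SEC62), 0.092 (CXCL12), 0.10 (PRDX3), 0.40 (NRP2), 0.12 (EMCN) and 0.14 (PGLYRP1). Without cows 8541 and 8713 they were 0.072 (SREBF2), 0.16 (SLC38A2), 0.098 (ATF4), -0.18 (PSAP), -0.17 (LBP), -0.040 (NFE2L2), 0.17 (KDR), -0.44 (MKI67) and -0.64 (TOP2A). Without the block for cow MKI67 was -0.20 and TOP2A -0.44, and TOP2A was -0.044 with 18 and -0.22 with 30 HT samples. With 1 cow left out, NRP2 ranged from -0.22 to 0.059, MKI67 from -0.082 to 0.82 and TOP2A from -0.27 to 0.52. Genes of a few CPM are limited by depth.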
